A study of Mus musculus with 13 samples.

Results

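Prxl2b and 9 other genes of prostaglandin metabolism were followed across the livers and kidneys of adult mice that had developed from fresh or vitrified oocytes. The 10 genes were the rows of the expression table carrying the symbols Prxl2b, Ptgs1, Ptgs2, Ptges, Ptges2, Ptges3, Ptgds, Ptgis, Hpgd and Ptgr1, out of 22298 genes in all. Prxl2b was selected on its measured levels, which had been seen in these data to be lower after vitrification in both organs, so that its vitrified against fresh difference is given as a description without a test. The remaining 9 genes were chosen for their place in the pathway, with earlier results of these data known.

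The mice were 8-week-old offspring of the outbred stock CD-1 (ICR). In the vitrified groups the oocytes had been frozen into a glass-like state on a Cryotop carrier, thawed and rested in culture before fertilisation in vitro, while in the fresh groups they were fertilised without freezing, and all other handling was shared. All embryos of both origins were therefore also cultured, and were transferred at cleavage to pseudopregnant foster females, so neither group represents natural conception. RNA from pieces of tissue was sequenced as 13 libraries, with 3 fresh and 3 vitrified livers, and 3 kidneys of fresh and 4 of vitrified origin. Replicates are labelled as biological, without sex, litter, parent or batch, so each p-value reflects only how far these samples spread.

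Prostaglandins are short-lived lipid signals made from arachidonic acid. A phospholipase frees the acid from membranes, a cyclooxygenase converts it to prostaglandin H2, and terminal synthases or reductases turn that intermediate into prostaglandins E2, D2, F2α, prostacyclin or thromboxane. Prxl2b encodes a peroxiredoxin-like protein with a thioredoxin-like fold, known as prostamide/prostaglandin F synthase, which reduces prostaglandin H2 to prostaglandin F2α and the corresponding ethanolamide to prostamide F2α. In the kidney, prostaglandins act on blood flow, renin release and salt and water handling, and in the liver on both parenchymal and immune cells.

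The regions around the annotated starts of Prxl2b, of both cyclooxygenase genes and of Hpgd are shown because the origin difference, the isozyme contrast and the largest difference between organs in the liver's favour among the 10 genes concern these genes. They were taken from RefSeq on the build GRCm38.p6, in which 9 of the 10 genes were matched, and run 5′ to 3′ on the gene's own strand from 250 bases before the start to 50 bases after it. Capitals mark matches on either strand to 5 motifs, which were the TATA box (TATAAA), the core of a GC box (GGGCGG), the CCAAT box, the E box (CACGTG) and the cyclic AMP response half-site (TGACG).
Prxl2b, chr4:154898994-154899293, minus strand: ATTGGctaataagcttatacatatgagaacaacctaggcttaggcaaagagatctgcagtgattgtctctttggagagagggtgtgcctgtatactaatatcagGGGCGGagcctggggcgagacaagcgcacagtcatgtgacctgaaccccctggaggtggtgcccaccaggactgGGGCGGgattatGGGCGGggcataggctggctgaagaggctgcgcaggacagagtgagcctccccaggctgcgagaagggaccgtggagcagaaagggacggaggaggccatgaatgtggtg
Ptgs1, chr2:36230176-36230475, plus strand: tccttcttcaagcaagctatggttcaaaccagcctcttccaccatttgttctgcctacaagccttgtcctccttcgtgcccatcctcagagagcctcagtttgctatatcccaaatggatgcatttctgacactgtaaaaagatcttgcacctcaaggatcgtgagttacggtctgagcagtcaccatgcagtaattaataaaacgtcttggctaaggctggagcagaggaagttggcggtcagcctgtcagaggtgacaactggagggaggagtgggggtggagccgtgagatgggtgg
Ptgs2, chr1:150099781-150100080, plus strand: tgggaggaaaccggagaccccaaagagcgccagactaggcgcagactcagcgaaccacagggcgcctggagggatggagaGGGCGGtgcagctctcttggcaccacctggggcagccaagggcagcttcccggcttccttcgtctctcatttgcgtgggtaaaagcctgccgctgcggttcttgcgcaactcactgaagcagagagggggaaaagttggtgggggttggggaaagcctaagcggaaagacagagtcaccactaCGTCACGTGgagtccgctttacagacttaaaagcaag
Hpgd, chr8:56294302-56294601, plus strand: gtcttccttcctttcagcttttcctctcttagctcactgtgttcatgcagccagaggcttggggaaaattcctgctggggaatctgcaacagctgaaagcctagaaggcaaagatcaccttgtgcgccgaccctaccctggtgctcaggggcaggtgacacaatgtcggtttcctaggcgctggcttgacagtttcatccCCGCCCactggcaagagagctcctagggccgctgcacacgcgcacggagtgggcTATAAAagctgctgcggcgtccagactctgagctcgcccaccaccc
The Prxl2b window held 3 copies of GGGCGG, 1 CCAAT on the opposite strand at its far upstream end and 9 CpG dinucleotides. The Ptgs1 window held none of the 5 motifs and 6 CpG. In the Ptgs2 window there were 1 GGGCGG, 16 CpG, and an E box that overlapped a cyclic AMP response half-site. The half-site began at base 14 and the E box at base 17 after the annotated start. The Hpgd window held 1 TATAAA, 1 GGGCGG and 12 CpG, and its TATAAA began at base 5, also after the annotated start. Over 32851 mouse promoter windows of the same length, the GC box core was present in 35.7%, the CCAAT box in 37.4%, the half-site in 20.8%, the TATA box in 13.6% and the E box in 7.15%, and the median number of CpG was 7. These matches describe letters in the window and not bound sites.

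The library totals of estimated counts ranged from 16073251 to 19964914. Levels below are CPM, the count of a gene per 1000000 counts of its library, and genes are compared with each other only in FPKM, which also divides by transcript length. Hepatocyte markers such as Alb marked the livers and proximal tubule markers the kidneys, with summed proximal tubule levels of 12580 to 39350 CPM in kidneys and 51.6 to 75.5 CPM in livers. Liver fresh 3, kidney fresh 3 and kidney vitrified 4 stood apart from the other libraries, with a summed level of 4 Y-linked genes between 0.170 and 1.25 CPM, against 137 to 205 CPM elsewhere. Such a library was in both kidney groups, but among livers in the fresh group only, so the liver origins also differed in this. No label gives the sex of a library. In bulk tissue, fewer cells of a type and less RNA per cell cannot be told apart.

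Prxl2b RNA was lower in the vitrified than in the fresh groups of liver and kidney. In fresh livers it measured 12.6, 15.2 and 10.2 CPM, and in vitrified livers 5.41, 6.96 and 5.22 CPM. In fresh kidneys it measured 27.4, 19.1 and 28.7 CPM, and in vitrified kidneys 4.96, 7.78, 2.57 and 7.70 CPM. Every vitrified library lay below every fresh library of its organ. Kidney vitrified 3 was the lowest of the 13 and kidney fresh 3 the highest.

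**Figure D1:**
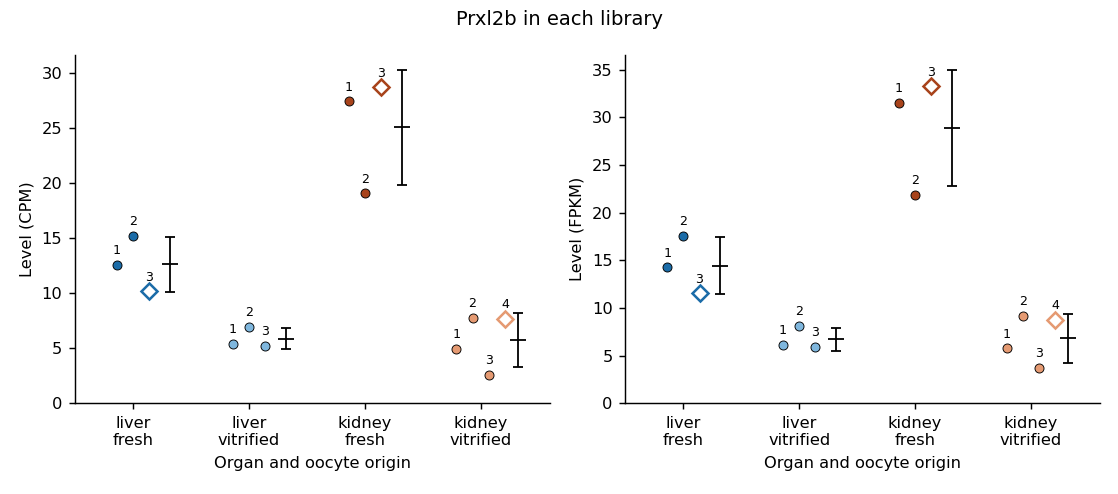
Prxl2b in each of the 13 libraries in CPM (left) and FPKM (right), by organ and oocyte origin. Numbers are replicates, open diamonds the 3 libraries near 0 in Y-linked counts, and the dash with bars the mean ± SD. The fresh kidneys lie at 19.1 CPM or above and the vitrified kidneys at 7.78 CPM or below.

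Fresh livers averaged 12.6 ± 2.51 CPM (SD, n = 3), against 5.86 ± 0.956 CPM for the 3 vitrified livers. Fresh kidneys averaged 25.1 ± 5.23 CPM (n = 3), against 5.75 ± 2.50 CPM for the 4 vitrified kidneys. The fresh mean was 2.16 times the vitrified mean in liver and 4.36 times in kidney, and the lowest fresh library was 1.46 and 2.45 times the highest vitrified one. Fitted log2 fold changes of vitrified over fresh were -1.08 in liver and -2.12 in kidney, differing by -1.03. On the CPM scale the vitrified groups of both organs had similar means, and all fresh kidneys were above all fresh livers, an order that depends on the scaling as given with the organ comparison. Of all tested genes, 7.61% in liver and 2.89% in kidney had no overlap between origins, and 3.41% and 1.7% had every vitrified library below every fresh one, from which nothing is read for Prxl2b because this contrast chose it. The sign of the difference is set by the choice of the gene. Its fitted size lay, over the alternative ways of fitting, between -1.21 and -0.95 in liver and between -2.36 and -1.90 in kidney. The summed estimated counts behind the groups were 700 and 343 in fresh and vitrified livers, and 1382 and 410 in fresh and vitrified kidneys. No other annotated transcript shared long identical stretches with Prxl2b.

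Alb, the gene of serum albumin and 1 of 8 listed hepatocyte markers, varied between the kidney libraries. It was at 147, 129 and 306 CPM in the fresh kidneys and at 116, 156, 1.28 and 10.5 CPM in the vitrified kidneys. The sum of the 8 markers overlapped between origins, at 589 to 2859 CPM in fresh and 50.6 to 2628 CPM in vitrified kidneys. Both low ends were libraries near 0 in Y-linked counts, kidney fresh 3 and kidney vitrified 4. The other kidneys lay at 2285 to 2859 CPM. Kidney vitrified 3, the lowest in Alb, had the sum of 2628 CPM. The log2 fold changes of vitrified over fresh kidneys were below 0 for 6 of the 8 and above 0 for 2. Origins were compared in each organ for summed lists of markers and of Y-linked, immediate early and heat shock genes. The markers were of hepatocytes, proximal tubule, thick limb with macula densa, collecting duct, inner medulla with papilla, and endothelium. Further lists were of stellate cells with fibroblasts and smooth muscle, macrophages, neutrophils, platelets with megakaryocytes, and mast cells. Of these comparisons 4 did not overlap, and all the others overlapped. Of single tested genes, a different unit from a summed list, 7.61% in liver and 2.89% in kidney did not overlap. In livers, immediate early genes were at 134 to 652 CPM in the vitrified and 94.6 to 107 CPM in the fresh group, proximal tubule markers at 51.6 to 61.5 and 73.1 to 75.5 CPM, and thick limb and macula densa markers at 10.7 to 13.1 and 14.1 to 15.4 CPM. Both tubule lists were at trace levels in liver, against 12580 to 39350 and 5325 to 12180 CPM in kidney. In kidneys, neutrophil markers were at 3.31 to 11.9 CPM in the vitrified and 0.980 to 2.22 CPM in the fresh group. The lowest Prxl2b library of each organ in CPM, vitrified 3, also had the highest summed heat shock level, at 3451 CPM in liver and 6638 CPM in kidney. In liver, Prxl2b was at 5.22 CPM in vitrified 3 and 5.41 CPM in vitrified 1, an order that depends on the scaling. The part of these genes in the Prxl2b values was not tested.

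Among the 10 genes, the place of Prxl2b by level changed with origin in the kidney. In FPKM it was the third of the 10 in fresh livers at 14.4 ± 3.00 and the third in vitrified livers at 6.70 ± 1.20, below Hpgd and Ptges3 and above Ptgs1. It was the second in fresh kidneys at 28.9 ± 6.13 FPKM, below Ptges3 at 48.7 ± 7.28 FPKM and above Hpgd at 18.9 ± 16.7 FPKM, from which it did not differ beyond the spread. It was the sixth in vitrified kidneys at 6.82 ± 2.58 FPKM, between Ptgs1 at 7.20 ± 2.94 FPKM and Ptgr1 at 5.07 ± 2.50 FPKM, both within the spread. The lowest FPKM level in every group was that of Ptgs2.

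The 5 genes whose profile over the 13 libraries was most like that of Prxl2b were Lbp, Slc27a5, Ero1lb, Trf and C3. Genes with a Gm-numbered or Rik symbol or without a symbol were not eligible for these 5, but are among the genes compared. Likeness was the root-mean-square difference between log2 CPM profiles after subtracting each organ's mean, over 11122 genes at a mean of at least 1 CPM in both organs. It was 0.537 for Lbp, the lipopolysaccharide-binding protein, 0.608 for Slc27a5, a bile acid and fatty acid CoA ligase, and 0.613 for Ero1lb, an oxidase of the endoplasmic reticulum. It was 0.617 for Trf, which encodes transferrin, and 0.622 for the complement gene C3. For comparison, the median gene was at 0.997 and a profile without any variation at 0.942. Lbp averaged 170 ± 12.1 CPM in livers of fresh and 66.6 ± 22.9 CPM in livers of vitrified origin, and 17.5 ± 8.84 and 3.34 ± 1.20 CPM in fresh and vitrified kidneys. Ero1lb averaged 48.4 ± 7.60 and 19.3 ± 6.48 CPM in the livers and 28.1 ± 4.51 and 10.5 ± 4.72 CPM in the kidneys, in the same order. In fresh and vitrified livers, Slc27a5 averaged 619 ± 179 and 553 ± 192 CPM, within the spread. So were Trf at 14630 ± 1788 and 12630 ± 2812 CPM, and C3 at 5301 ± 1011 and 3844 ± 1654 CPM. In the kidneys these 3 averaged 2.17 and 0.66, 54.2 and 25.5, and 27.4 and 14.5 CPM. Likeness includes the origin difference that chose Prxl2b, so nothing is read from it for origin. Of the other 9 prostaglandin genes, Ptgs2 and Ptges were under the minimum of 1 CPM in liver. The likeness of the remaining 7 lay between 0.896 for Hpgd and 1.26 for Ptgr1.

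The cyclooxygenases carry out the committed step. Ptgs1, the constitutive isozyme, measured 9.08, 11.2 and 16.7 CPM in fresh livers and 11.4, 14.4 and 6.10 CPM in vitrified livers. In the kidney it measured 13.7, 14.9 and 24.5 CPM in the fresh and 15.6, 16.2, 17.6 and 33.2 CPM in the vitrified group. The origins overlapped in both organs, and kidney fresh 3 and kidney vitrified 4 were the highest of their groups. The log2 fold change of vitrified over fresh was -0.21 ± 0.32 (SE) in liver and 0.23 ± 0.25 in kidney (edgeR quasi-likelihood test, Benjamini-Hochberg adjusted p = 0.993 or less in liver and 0.999 in kidney for each of the genes tested here).

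Ptgs2, the inducible isozyme, was near the limit of detection in liver. Its estimated counts summed to 5 over the 6 livers, which gave 0, 0.0554 and 0 CPM in the fresh and 0.0505, 0.103 and 0.0517 CPM in the vitrified group. In kidneys it measured 0.908, 0.798 and 2.02 CPM in the fresh and 1.25, 0.436, 4.52 and 3.51 CPM in the vitrified group. Kidney vitrified 3 and 4 were above all other kidneys, and kidney vitrified 2 was below all of them. The kidney log2 fold change of 1.01 ± 0.72 did not pass the test (edgeR adjusted p = 0.999) and was 0.41 without kidney vitrified 3. Kidney vitrified 3 also had a summed level of 14 immediate early genes of 398 CPM, against 122 to 199 CPM in the other kidneys, and of 8 heat shock genes of 6638 CPM, against 2578 to 3107 CPM. Their part in the Ptgs2 values was not tested.

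The 3 prostaglandin E synthases had different levels and spreads. Ptges, the microsomal synthase that is induced together with Ptgs2, measured 6.10, 11.8 and 13.8 CPM in fresh and 9.22, 8.77, 14.2 and 23.8 CPM in vitrified kidneys. In the livers it was at 0.109, 0.388 and 0.0519 CPM in the fresh and 0.556, 0.103 and 0.103 CPM in the vitrified group. Like Ptgs2, it did not pass the filter on low counts in liver. Its kidney origins overlapped, with a log2 fold change of 0.41 ± 0.35 (edgeR adjusted p = 0.999).

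Ptges2 encodes a membrane-associated synthase. It measured 13.4, 16.9 and 13.4 CPM in the fresh and 11.6, 12.8 and 13.6 CPM in the vitrified livers. In kidneys the values were 40.3, 38.4 and 37.3 CPM in the fresh and 50.9, 51.4, 34.6 and 30.9 CPM in the vitrified group. The vitrified kidneys lay on both sides of the fresh ones, with replicates 1 and 2 above and 3 and 4 below. The log2 fold changes were -0.15 ± 0.21 in liver and 0.15 ± 0.25 in kidney.

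Ptges3, which encodes the cytosolic prostaglandin E synthase that is also the HSP90 co-chaperone p23, was the most abundant of the 3. It measured 75.7, 65.8 and 87.9 CPM in fresh livers and 102, 94.4 and 113 CPM in vitrified livers. In the kidneys it measured 88.3, 89.5 and 114 CPM in the fresh and 97.8, 130, 153 and 108 CPM in the vitrified group. All vitrified livers were above all fresh livers, as were 4.2% of all genes tested in liver, while the kidney origins overlapped. The log2 fold change was 0.48 ± 0.22 in liver (edgeR adjusted p = 0.99) and 0.38 ± 0.23 in kidney (adjusted p = 0.999), neither passing the test.

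Within the vitrified groups, the highest Ptges3 values were in liver vitrified 3 and kidney vitrified 3. Those libraries had the highest summed heat shock levels of their organs, at 3451 CPM in the liver library, where the others ranged from 614 to 1005 CPM, and at 6638 CPM in the kidney library. Without them the Ptges3 log2 fold change was 0.32 in liver and 0.20 in kidney, and the part of the heat shock genes was not tested. Ptges3 shares 19.5% of its sequence, in identical stretches, with the pseudogene Ptges3-ps, which is not a row of the table analysed here, so its level is uncertain.

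**Figure D2:**
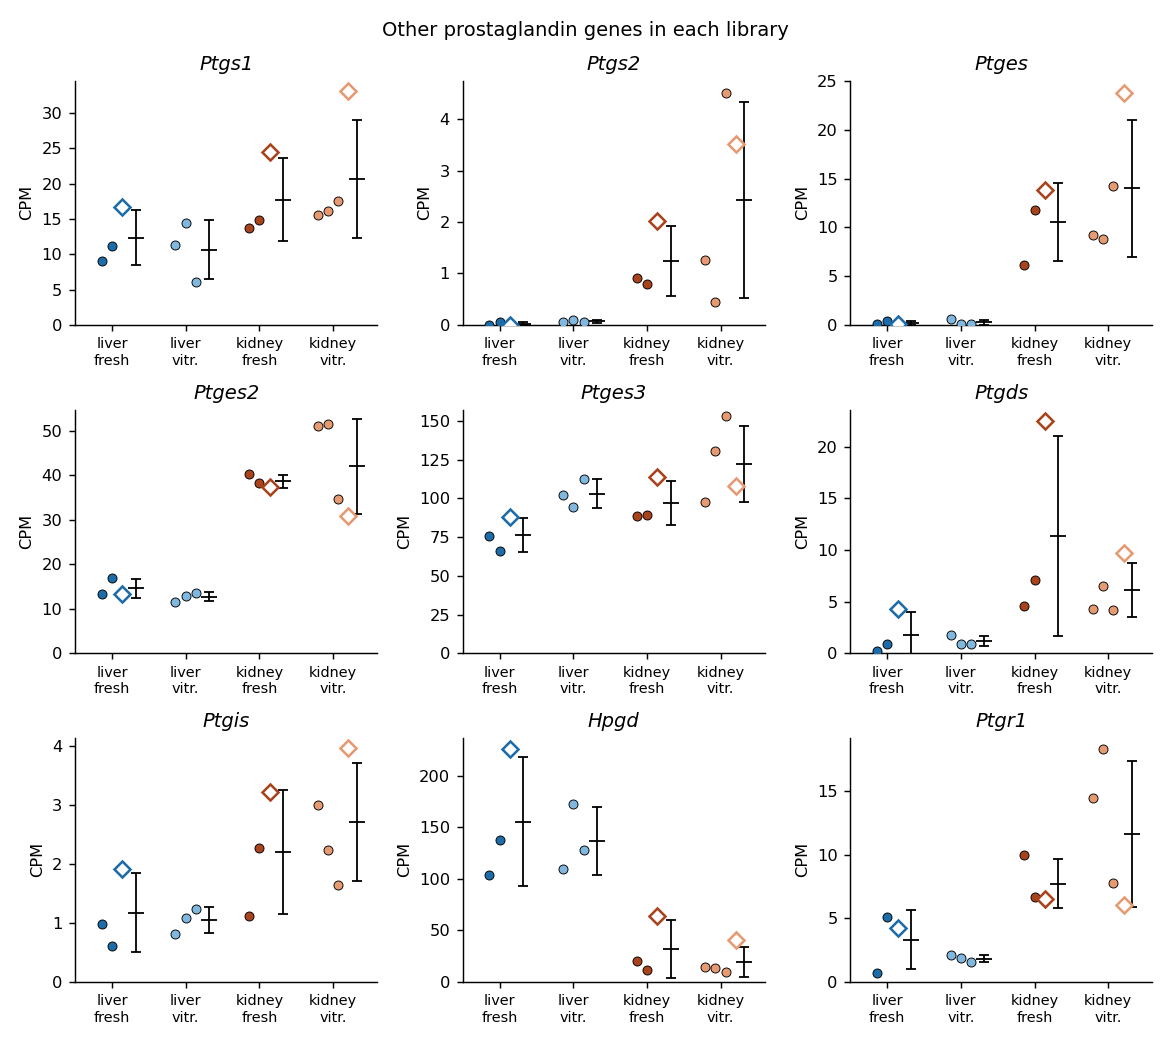
The other 9 prostaglandin genes in each library, as CPM by organ and oocyte origin, with a separate linear axis for each gene. Open diamonds are the 3 libraries near 0 in Y-linked counts, filled circles the others, and the dash with bars the mean ± SD, cut off at 0 where the bar would pass below it. Ptgs2 and Ptges lie near 0 in all livers, Hpgd is highest in liver, and the diamonds are at the top of their groups for Ptgs1, Ptgds, Ptgis and Hpgd.

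Ptgds, the lipocalin-type prostaglandin D synthase, measured 0.219, 0.887 and 4.31 CPM in the fresh and 1.77, 0.928 and 0.931 CPM in the vitrified livers. In kidneys it measured 4.59, 7.06 and 22.4 CPM in the fresh and 4.26, 6.47, 4.16 and 9.68 CPM in the vitrified group. Liver fresh 3 and kidney fresh 3 were several times above the other fresh libraries of their organ. The log2 fold change was -0.54 ± 0.91 in liver, where it turned to 1.18 without liver fresh 3, and -0.83 ± 0.48 in kidney, where it was -0.01 without kidney fresh 3.

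Ptgis, the prostacyclin synthase, was low in both organs. It measured 0.985, 0.610 and 1.92 CPM in the fresh and 0.808, 1.08 and 1.24 CPM in the vitrified livers. In kidneys the values were 1.11, 2.27 and 3.21 CPM in the fresh and 3.01, 2.24, 1.64 and 3.96 CPM in the vitrified group. The origins overlapped in both organs, with log2 fold changes of -0.12 ± 0.51 in liver and 0.32 ± 0.40 in kidney. Ptgis overlaps an antisense transcript, 1110018N20Rik, over 4.25% of its sequence, and the use of strand in counting is not known here.

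Hpgd and Ptgr1 encode the inactivating enzymes. Hpgd, the 15-hydroxyprostaglandin dehydrogenase that begins the breakdown of prostaglandins, measured 104, 137 and 226 CPM in the fresh and 110, 173 and 128 CPM in the vitrified livers. In kidneys it measured 19.9, 11.7 and 64.0 CPM in the fresh and 14.4, 13.1, 8.99 and 40.5 CPM in the vitrified group. The origins overlapped, and in each organ the highest value was in a library near 0 in Y-linked counts. The log2 fold change was -0.16 ± 0.30 in liver and -0.71 ± 0.59 in kidney, and it was 0.15 in kidney without kidney fresh 3 and 0.22 in liver without liver fresh 3.

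Ptgr1, prostaglandin reductase 1, acts on the 15-keto metabolites that Hpgd makes. It measured 0.657, 5.10 and 4.20 CPM in the fresh and 2.07, 1.86 and 1.55 CPM in the vitrified livers, where the fresh group spread on both sides of the vitrified one. In kidneys it measured 9.94, 6.69 and 6.48 CPM in the fresh and 14.5, 18.3, 7.80 and 6.0 CPM in the vitrified group, which also overlapped. The log2 fold changes were -0.81 ± 0.63 in liver and 0.63 ± 0.44 in kidney.

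Among the 9 genes other than Prxl2b, none of the 7 tested in liver and none of the 9 tested in kidney passed an adjusted p of 0.05 for oocyte origin by edgeR. Over all genes, Prxl2b included, the test called 0 of 12335 in liver and 0 of 14018 in kidney (0% in each). An unadjusted p under 0.05 was found for 390 (3.16%) and 288 (2.05%). DESeq2 called 10 genes in each organ and limma-voom 0, and neither called any of the 9. The difference of the origin effect between organs was not called for any of the 9 either, with 0 of 14441 genes called and 275 (1.9%) at an unadjusted p under 0.05. These misses do not show that the 9 genes had equal levels in both origins.

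**Figure D3:**
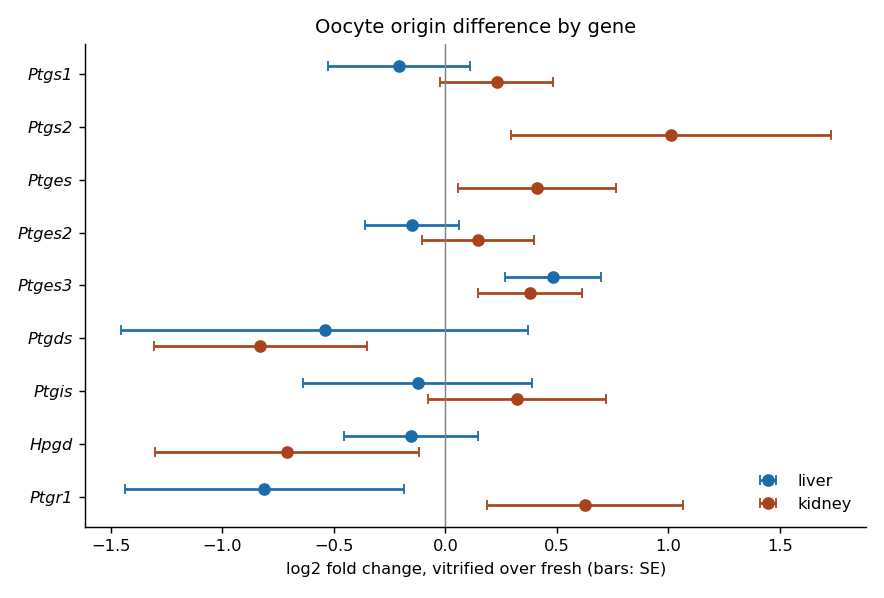
Log2 fold change of vitrified over fresh in liver (blue) and kidney (red) for the 9 genes other than Prxl2b, with bars of 1 SE from edgeR. Ptgs2 and Ptges have no liver value because they did not pass the filter on low counts. The values lie between -0.83 and 1.01 and none passed the test.

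Ptgs1, Ptgds, Ptgis and Hpgd had their highest level of the group in each of the 3 libraries near 0 in Y-linked counts. This was the case for 4 of the 10 genes and for 15.1% of the 14441 genes tested across both organs. Prxl2b was not among them, being lowest of its group in liver fresh 3. Kidney fresh 3 and kidney vitrified 4 also differed in marker levels from the other kidneys. The summed proximal tubule markers were 18470 and 12580 CPM, against 35780 to 39350 CPM. Thick limb and macula densa markers were 9975 and 12180 CPM, against 5325 to 6688 CPM, and collecting duct markers 492 and 800 CPM, against 237 to 413 CPM. Inner medulla and papilla markers were 1277 and 1188 CPM, against 395 to 742 CPM, and endothelial markers 531 and 720 CPM, against 313 to 449 CPM. Hepatocyte markers were 589 and 50.6 CPM, against 2285 to 2859 CPM. The part of these differences in the levels of the 4 genes was not tested.

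The organ comparison was made over all 13 libraries as the mean of the kidney groups over the mean of the liver groups. Its direction for moderate differences depended on the scaling, and the TMM factors were 0.622 to 0.763 in livers and 1.25 to 1.56 in kidneys. Scaled by TMM, which assumes that most genes do not differ, the median log2 fold change of all genes was -0.00, and scaled by library totals it was 0.985. Changes are therefore given relative to the median gene, and the value by library totals is given for each of the 10 genes. Of the 10 genes, 6 passed the test by edgeR under TMM, 4 of them higher and 2 lower in kidney, while 62.7% of all genes passed, 32.4% higher and 30.3% lower, so the share among the 10 was close to that of the table as a whole. By library totals 7 were higher and 1 lower, beside 69.7% and 10.5% of all genes. Ptgs2 and Ptges entered this comparison only through the kidney, since they were filtered out in liver, so their direction was fixed by the filter. Of the other 8, 2 were higher and 2 lower relative to the median gene and 5 and 1 by library totals. Of the 11997 genes past the filter in each organ alone, 25.6% were higher and 33.6% lower, and 68.6% and 10.2% by library totals.

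Ptgs2 and Ptges had higher levels in kidney than in liver by both scalings. The log2 fold change was 4.43 ± 0.74 for Ptgs2 (edgeR adjusted p = 0.00015) and 4.78 ± 0.47 for Ptges (adjusted p = 1.06e-06). By library totals these were 5.34 and 5.78. Both genes entered only through the kidney, so the p-values and the order of the libraries are no support for the direction. All 7 kidneys lay above all 6 livers for both genes, as they did in CPM for 51.9% of all genes (58.7% had no overlap in either direction). Because the liver counts were near 0, the size of these folds depends on the value added before the logarithm, and on log2(FPKM + 1) they were 0.45 and 1.98. In FPKM, Ptges averaged 3.44 ± 1.58 in kidney and 0.0600 ± 0.0562 in liver, and Ptgs2 averaged 0.430 ± 0.345 and 0.00833 ± 0.00753.

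For Ptges2, every kidney lay above every liver in CPM, as for 51.9% of all genes. Its log2 fold change of kidney over liver was 0.59 ± 0.17 (edgeR adjusted p = 0.00769), and by library totals the value was 1.57. It was 0.43 ± 0.24 within the fresh groups (adjusted p = 0.169) and 0.75 ± 0.23 within the vitrified groups (adjusted p = 0.0157). Ptgds was higher by 1.45 ± 0.55 (edgeR adjusted p = 0.0336) with overlapping organs, and by 2.49 (adjusted p = 0.00163) by library totals. It no longer passed when any of 6 libraries was left out, which were liver fresh 2, liver vitrified 2, liver vitrified 3, kidney fresh 3, kidney vitrified 2 and kidney vitrified 4 (log2 fold changes of 1.05 to 1.43, adjusted p between 0.0511 and 0.107), while without liver fresh 3 it was 2.32 (adjusted p = 0.000872). It did not pass within the fresh or the vitrified groups alone either (adjusted p = 0.117 and 0.165). In CPM every kidney lay above every liver for Ptgr1, a pattern shared by 51.9% of all genes. Ptgr1 lay at the threshold, at 0.98 ± 0.41 (edgeR adjusted p = 0.0503). It passed by library totals at 1.94 (adjusted p = 0.000651) and by DESeq2 at 1.02 (adjusted p = 0.0201), and in 12 of 26 alternatives in all. Within the vitrified groups it was 1.72 ± 0.58 (adjusted p = 0.0249) and within the fresh groups 0.25 ± 0.58 (adjusted p = 0.753).

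Hpgd was lower in kidney, by a log2 fold change of -3.61 ± 0.41 (edgeR adjusted p = 6.59e-06). All kidneys lay below all livers in CPM, a pattern shared by 6.83% of all genes, and by library totals the value was -2.56. Its FPKM averaged 14.7 ± 12.1 in kidney and 86.8 ± 27.4 in liver. The fold change was -3.35 ± 0.60 within the fresh and -3.88 ± 0.55 within the vitrified groups (adjusted p = 0.000582 and 7.58e-05).

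For 3 genes the direction turned with the scaling. Ptges3 was at -0.70 ± 0.16 (edgeR adjusted p = 0.00232) relative to the median gene and at 0.30 (adjusted p = 0.0624) by library totals. Ptgs1 was at -0.26 ± 0.22 (adjusted p = 0.314) and at 0.74 (adjusted p = 0.0198). Prxl2b was at -0.51 ± 0.22 (adjusted p = 0.0547) and at 0.48 (adjusted p = 0.0838), passing by neither scaling. Other settings put it past the threshold on either side of 0, at -0.57 by limma-voom (adjusted p = 0.0326) and at 0.46 on log2(FPKM + 1) by limma (adjusted p = 0.0417). Its organ value also differed between origins, at -0.00 in the fresh and -1.03 in the vitrified groups relative to the median gene. That difference is given without a test, because the origin contrast chose Prxl2b. Ptgis was above 0 by both scalings but passed only by library totals of these, at 0.11 ± 0.33 (edgeR adjusted p = 0.787) and 1.14 (adjusted p = 0.011), and it passed on log2(FPKM + 1) at 0.49 (limma adjusted p = 0.0113).

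**Figure D4:**
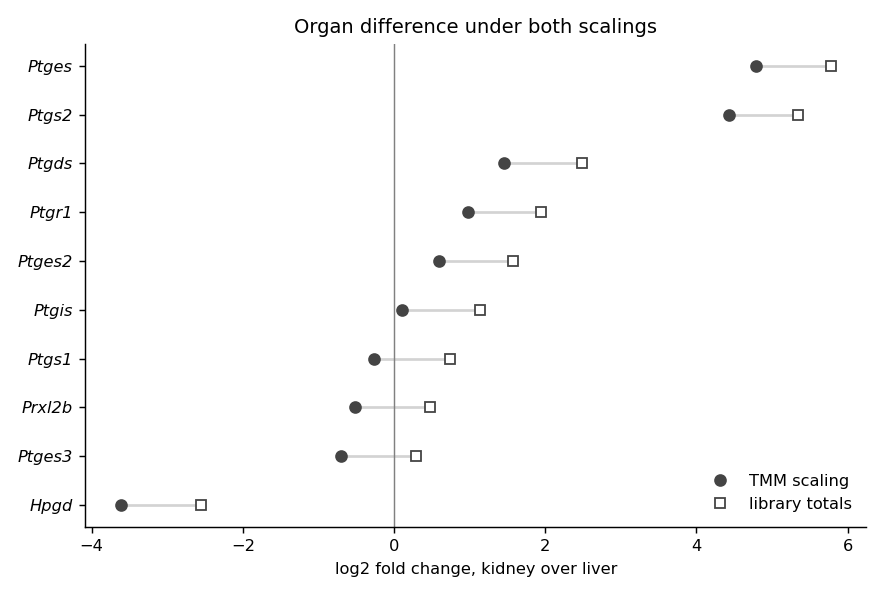
Log2 fold change of kidney over liver for the 10 genes, scaled by TMM (filled circles) and by library totals (open squares), with a grey line joining both values of a gene. Hpgd is below 0 and Ptgs2, Ptges, Ptges2, Ptgds, Ptgis and Ptgr1 above 0 by both scalings, while Prxl2b, Ptgs1 and Ptges3 cross 0.

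In the lists that follow, counts are over the genes past the filter in each organ alone, to be read against 25.6% higher and 33.6% lower relative to the median gene, and 68.6% and 10.2% by library totals. Upstream of the cyclooxygenases, 11 genes that release arachidonic acid were counted. Of these, 3 were higher and 6 lower in kidney by edgeR relative to the median gene, while 5 were higher and 1 lower by library totals. Among the most abundant in kidney, Faah, which hydrolyses anandamide, was lower in kidney by both scalings, with -1.92 ± 0.16 relative to the median gene. Mgll, the monoacylglycerol lipase, was at 24.9 ± 8.12 FPKM in kidney and 27.2 ± 6.61 FPKM in liver, and its call of -1.11 ± 0.18 was lost by library totals. Of genes that passed the filter in 1 organ alone, named after their values were seen, the secreted phospholipase Pla2g5 averaged 5.53 ± 2.44 FPKM in kidney and 0.0283 ± 0.0366 FPKM in liver. Pla2g12b showed the opposite order, with 24.5 ± 2.72 FPKM in liver and 0.0800 ± 0.0721 FPKM in kidney.

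Among 15 other prostanoid synthases and reductases, 5 were higher and 7 lower in kidney relative to the median gene, and 5 and 5 by library totals. Several aldo-keto reductases, of a family that reduces prostaglandins and steroids, had large differences in either direction. Akr1c21 averaged 558 ± 245 FPKM in kidney and 1.25 ± 0.441 FPKM in liver, and Akr1b3, a mouse aldose reductase with prostaglandin F synthase activity, 87.0 ± 25.5 and 11.3 ± 3.97 FPKM. Akr1c6 showed the reverse, with 965 ± 141 FPKM in liver and 2.13 ± 1.72 FPKM in kidney, as did Akr1c13 with 66.3 ± 11.5 and 8.02 ± 4.47 FPKM. Members of the Akr1c family resemble each other in sequence, so the authors' counting could divide reads between them and these levels are uncertain. Akr1c18 measured 53.8, 128 and 251 CPM in fresh and 36.7, 23.0, 38.5 and 106 CPM in vitrified kidneys, overlapping, with a log2 fold change of -1.49 ± 0.54 that did not pass (edgeR adjusted p = 0.999).

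Of 8 receptors and transporters of prostaglandins, 7 were higher and 1 lower in kidney by edgeR, in the same numbers by library totals. Another 4, the receptor genes Ptger3, Ptger4, Ptgfr and Ptgir, were filtered out in liver and entered only through the kidney. Of these, Ptger3, the EP3 receptor of prostaglandin E2, averaged 14.7 ± 6.27 FPKM in kidney and 0.0550 ± 0.0539 FPKM in liver. Slc22a6 and Slc22a8, organic anion transporters of the proximal tubule that carry prostaglandins, averaged 268 ± 134 and 104 ± 56.6 FPKM in kidney and under 1 FPKM in liver. Ptgfr, the receptor for the product of Prxl2b and named after its values were seen, averaged 7.83 ± 4.07 FPKM in kidney and 0.0633 ± 0.0981 FPKM in liver. The exception was Slco2a1, the prostaglandin uptake transporter, also named after its values were seen, with 3.70 ± 1.75 FPKM in kidney and 6.04 ± 1.26 FPKM in liver.

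In the branch of lipoxygenases and leukotrienes, 0 of 4 genes were higher and 3 lower in kidney by edgeR relative to the median gene, and 1 and 0 by library totals, while Alox5, Alox12 and Ltc4s entered only through the kidney. Ephx2, the soluble epoxide hydrolase, was the most abundant of them at 203 ± 96.0 FPKM in kidney and 252 ± 53.0 FPKM in liver. Of 13 genes of peroxiredoxins, thioredoxins, proteins like them and thioredoxin reductases, 1 was higher and 9 lower relative to the median gene. By library totals 7 were higher and 2 lower. Prdx5, higher by both scalings, had 847 ± 251 FPKM in kidney and 118 ± 17.4 FPKM in liver. Prxl2a and Prxl2c, other peroxiredoxin-like genes that were chosen after their values were seen, had vitrified over fresh log2 fold changes of 0.31 ± 0.28 and -0.26 ± 0.19 in liver and 0.16 ± 0.25 and -0.23 ± 0.16 in kidney, none passing the edgeR test.

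For oocyte origin, none of these lists had a gene that passed the edgeR test in either organ, as for the genes of the table as a whole. The tested members were 12 and 12 for arachidonate release, 16 and 18 for the other synthases, 8 and 12 for receptors and transporters, 4 and 7 for lipoxygenases, and 13 and 13 for peroxiredoxins, in liver and kidney. Their median log2 fold changes lay between -0.24 and 0.12 in liver and between -0.03 and 0.26 in kidney, and those of all genes were 0.01 and 0.02.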

How the data were processed

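RNA-seq of 13 liver and kidney libraries was analysed from 1 table of 22298 genes. The authors deposited an estimated count and an FPKM value per gene and library. The submitters' processing notes name the build GRCm39 and the tools HISAT2 2.4, Bowtie2 2.2.8, DESeq2 and StringTie 1.3.1. What each tool did, how reads were counted and whether strand was used is not given in the sources used here. Before the count models, estimated counts were rounded, since 7.63% to 9.14% of them in a library were not whole.

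For oocyte origin, livers and kidneys were fitted separately in R 4.3.3 with edgeR 4.0.16 (TMM, default filter on low counts, robust quasi-likelihood test, Benjamini-Hochberg over all genes tested). The organ comparison and the interaction used all 13 libraries. CPM divide by library totals, and SE come from the test statistic. DESeq2 1.42.0, limma 3.58.1, other scalings, filters and pseudocounts, a replicate block and leaving out libraries were alternatives, and the newer quasi-likelihood method and leaving out the libraries below 10 CPM of Y-linked genes (Ddx3y, Uty, Kdm5d and Eif2s3y) were added after seeing the data. The fits were tested on simulated data.

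The 10 genes and all lists were chosen with earlier results of these data known. All 10 are named. Of other lists, genes called for origin or else up to 4 with the highest FPKM in an organ could be named, with the 5 genes most like Prxl2b, and further genes are said to be chosen after their values were seen. Identical stretches were counted between transcripts of GENCODE M21, and no coordinates of the table's build are given.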

Additional observations from a re-analysis of the deposited data

Results flagged for a closer look

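Within the group of 4 vitrified kidneys, replicate 4 lay far above the other 3 for 2 genes. Ptgs1 was at 33.2 CPM there, with a gap to the nearest library of 0.885 of the group's range. Hpgd was at 40.5 CPM, with a gap of 0.83 of the range. For 4 samples, chance gives a gap this wide in about 1 of 20 groups, and 10 genes were checked. This library was near 0 in Y-linked counts and low in proximal tubule markers, as given with the marker levels, and the part of either was not tested.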

How the results depend on the processing

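None of the 9 genes other than Prxl2b was called for origin under any of 16 alternatives in liver and 18 in kidney. The number of genes called for origin over the table was 10 by DESeq2 in each organ. In kidney it was 2 without a filter on low counts, 2 by the newer quasi-likelihood method and 3 on log2(FPKM + 0.1). Leaving out 1 library gave 0 to 1 calls in liver (1 without liver fresh 1) and 0 to 3 in kidney (3 without kidney fresh 1), and the cause was not tested. For kidney over liver, Prxl2b, Ptgs1 and Ptges3 turned from negative to 0.48, 0.74 and 0.30 by library totals, to 0.46, 0.61 and 0.27 on log2(FPKM + 1) and to 0.47, 0.73 and 0.28 on log2(FPKM + 0.1). Prxl2b passed the test at -0.57 by limma-voom, and on log2(FPKM + 1) in the opposite direction. Leaving out 1 library gave -0.63 to -0.40, past the threshold without liver fresh 3, kidney vitrified 2 or kidney vitrified 4. Prxl2b was at -0.00 within the fresh and -1.03 within the vitrified groups, given without a test because the origin contrast chose it. Ptgis turned to -0.12 within the fresh groups, and ranged from -0.0479 to 0.40 without 1 library. In liver, vitrified over fresh, Ptgds turned to 0.26 by limma-voom and to 0.20 on log2(FPKM + 0.1). Leaving out 1 library moved it from -1.06 to 1.18, Ptgs1 from -0.41 to 0.0757, Ptgis from -0.44 to 0.43 and Hpgd from -0.36 to 0.22. In kidney it moved Hpgd from -1.24 to 0.15 and Ptges2 from -0.0026 to 0.32.

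The samples share replicate numbers that no label ties to a mouse or batch. Deviations of same-numbered libraries correlated at 0.0272 to 0.303 between organs (4 of 6 pairs over 0.1) and at -0.398 to 0.268 between origins (1 of 6), and 5 libraries correlated best with their own number in the other organ. That is a hint from the data and not from the design, and not every pair passed 0.1, so the numbers were not taken to pair samples. With a replicate block, kidney over liver gave -0.61 for Prxl2b, past the threshold (edgeR adjusted p = 0.0281), 1.16 for Ptgr1 (adjusted p = 0.0493), 8 called genes among the 10 and 9053 over the table, and Ptgds in liver turned to 0.0795 between origins. Depth limits Ptgs2 and Ptges in liver, with 5 and 25 counts in all.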
